A study of Mus musculus with 2 samples.

Results

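The 10 genes described here encode linker histones of the mouse and were taken by name: Hist1h1a, Hist1h1b, Hist1h1c, Hist1h1d, Hist1h1e, Hist1h1t, H1f0, H1fx, H1fnt and Hils1. They are 10 of the 21938 protein-coding genes that GENCODE M21 places on chromosomes 1 to 19, X and Y of mm10. Each was read against a list of peaks from an immunoprecipitation of one of their own products, H1t, the linker histone that Hist1h1t encodes. The peaks come from 1 chromatin immunoprecipitation library of testicular spermatogenic cells of the outbred mouse strain ICR, taken at an age of 6 weeks. Chromatin was cut with an enzyme and precipitated with a rabbit polyclonal antibody to H1t that the submitters prepared themselves. The series also has an input library without antibody, which was not analysed here. The cells are labelled as germ cells with no stage given, and how many mice were used is not stated in the labels. The list has 76546 peaks with scores from 50 to 3100. Its read depth is unknown. With 1 library there is no replicate and no test, so the values below carry no error of replication and differences between genes are descriptions. A peak list gives no expression level, so the labelled cell type could not be checked against marker genes.

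Linker histones bind the nucleosome where DNA enters and leaves it and help fold the chromatin fibre. Hist1h1a to Hist1h1e encode the replication-dependent somatic subtypes, and with Hist1h1t they lie in histone cluster 1 on chromosome 13 among the core histone genes. H1f0 encodes a replication-independent subtype found in differentiated cells, and H1fx a divergent subtype. Of the testis genes, Hist1h1t is known to be active in meiotic spermatocytes, and H1fnt and Hils1 in spermatids. Every one of the 10 is annotated with 1 transcript of 1 exon. In RefSeq they bear the newer names H1f1 (Hist1h1a), H1f5 (Hist1h1b), H1f2 (Hist1h1c), H1f3 (Hist1h1d), H1f4 (Hist1h1e), H1f6 (Hist1h1t), H1f10 (H1fx) and H1f7 (H1fnt).

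The peaks on the somatic cluster genes and on H1fnt lay mostly over the coding sequence, while Hist1h1t had none. Stretches of 150 coding bases are shown to compare the sequence under such peaks with that of Hist1h1t. For Hist1h1c, Hist1h1e and H1fnt they are centred on the coding part of the peak, and the Hist1h1t stretch is the one that aligned with that of Hist1h1c. Capitals mark CpG dinucleotides, and each is written 5′ to 3′ on the coding strand in mm10. The Hist1h1c stretch is chr13:23739007-23739156 on the plus strand and holds 13 CpG. The Hist1h1e stretch is chr13:23622263-23622412 on the minus strand and holds 16. The H1fnt stretch is chr15:98256726-98256875 on the minus strand and holds 6. Stretches of the other genes with a peak over the coding sequence, not shown, held 12 CpG in Hist1h1a, 8 in Hist1h1d and 15 in H1fx. Of the H1fx stretch, 40 bases lay under the peak. The Hist1h1t stretch is chr13:23696033-23696182 on the plus strand, with 6 CpG and no peak over it.
Hist1h1c: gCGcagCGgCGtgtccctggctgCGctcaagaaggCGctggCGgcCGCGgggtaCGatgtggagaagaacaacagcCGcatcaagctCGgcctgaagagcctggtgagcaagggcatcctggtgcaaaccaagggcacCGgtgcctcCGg
Hist1h1e: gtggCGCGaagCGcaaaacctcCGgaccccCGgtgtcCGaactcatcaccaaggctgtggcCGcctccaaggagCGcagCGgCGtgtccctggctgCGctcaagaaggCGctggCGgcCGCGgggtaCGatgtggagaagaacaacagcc
H1fnt: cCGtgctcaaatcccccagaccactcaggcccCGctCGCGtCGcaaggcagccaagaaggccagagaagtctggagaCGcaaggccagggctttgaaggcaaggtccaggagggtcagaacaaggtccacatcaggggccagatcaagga
Hist1h1t: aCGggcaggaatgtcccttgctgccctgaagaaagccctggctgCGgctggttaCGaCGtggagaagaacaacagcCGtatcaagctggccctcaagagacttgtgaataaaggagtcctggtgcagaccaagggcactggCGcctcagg

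Of the 10 genes, 7 carried an H1t peak within the gene: Hist1h1a, Hist1h1c, Hist1h1d, Hist1h1e, H1f0, H1fx and H1fnt. Over all coding genes this share was 48.6%. Over the 1318 coding genes with a single exon in every transcript, as in the linker histone genes, it was 23.7%. Coding genes were also divided into 5 classes by the GC content of the coding sequence, as described below. The highest class held 5 of the 10 linker histone genes and the next class 4. Among single-exon genes of these classes, 54.2% and 17.2% had a peak in the gene. Hist1h1t itself, Hist1h1b and Hils1 had no peak in the gene. A peak midpoint lay within 1 kb of the annotated start of 6 of the 10 genes, against 23.0% of coding genes and 21.2% of single-exon genes. In the highest and next GC class of single-exon genes this share was 48.8% and 15.9%. A peak touched the coding sequence of 6 of the 10, against 28.8% of coding genes. In the highest and next GC class it did so in 62.5% and 40.3% of coding genes, and in 52.9% and 15.2% of single-exon genes. Among the 7 peaks within genes, scores ran from 54.01 to 148.03 with a median of 67.04, beside 74.04 over all peaks, and widths ran from 422 to 1099 bp with a median of 597 bp, beside 700 bp. The 4822 peaks at coding starts had a median score of 70.13 and a median width of 667 bp.

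Hist1h1a (chromosome 13, 23763666 to 23764406, plus strand) had the narrowest of these peaks, 422 bp with a score of 60.16. It ran from 9 to 430 bp downstream of the start and covered 59.2% of the coding sequence. Hist1h1c (23738808 to 23740367, plus strand) had a peak of 569 bp with a score of 63.53, from 61 bp upstream to 507 bp downstream of the start, which covered 73.1% of the coding sequence. Hist1h1e (23620629 to 23622558, minus strand) had the lowest score of the 7, 54.01, in a peak of 475 bp from 94 bp upstream to 380 bp downstream. It covered 48.5% of the coding sequence. In all 3 genes the covered part included the start codon and the first part of the reading frame.

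Hist1h1d (chromosome 13, 23553262 to 23560686, plus strand) carried the highest score among peaks on the cluster's linker histone genes, 89.82, in a peak of 809 bp that covered 100% of its coding sequence. GENCODE begins this gene 1770 bp before the RefSeq start, so the peak lay from 1779 to 2587 bp downstream of the GENCODE start and was not counted as a start peak. From the RefSeq start it ran from 9 to 817 bp. Measured from RefSeq starts, 7 of the 10 genes had a start peak, against 24.4% of 17491 RefSeq coding genes. This alternative was added after the data were seen. Hist1h1d had no other peak within 50 kb, and 0 of its 14 coding neighbours in that distance had a peak in the gene. All of these neighbours were core histone genes of cluster 1. Of the 48 such genes 16.7% had a peak in the gene, against 48.6% of coding genes.

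Hist1h1b (chromosome 13, 21779883 to 21780625, minus strand) was the one somatic cluster gene with no peak of its own. It lies apart from the other 5, in the proximal end of the cluster. The nearest peak, with a score of 68.27, ended 2288 bp upstream of its start and lay over Hist1h3i, a histone H3 gene. With 2 further peaks over Hist1h2an and Hist1h2bp, genes of histones H2A and H2B, it had 3 peaks within 10 kb, more than any other of the 10 genes, and 6 within 50 kb. The coding stretch of Hist1h1b that aligned with the one shown for Hist1h1c held 8 CpG.

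**Figure D1:**
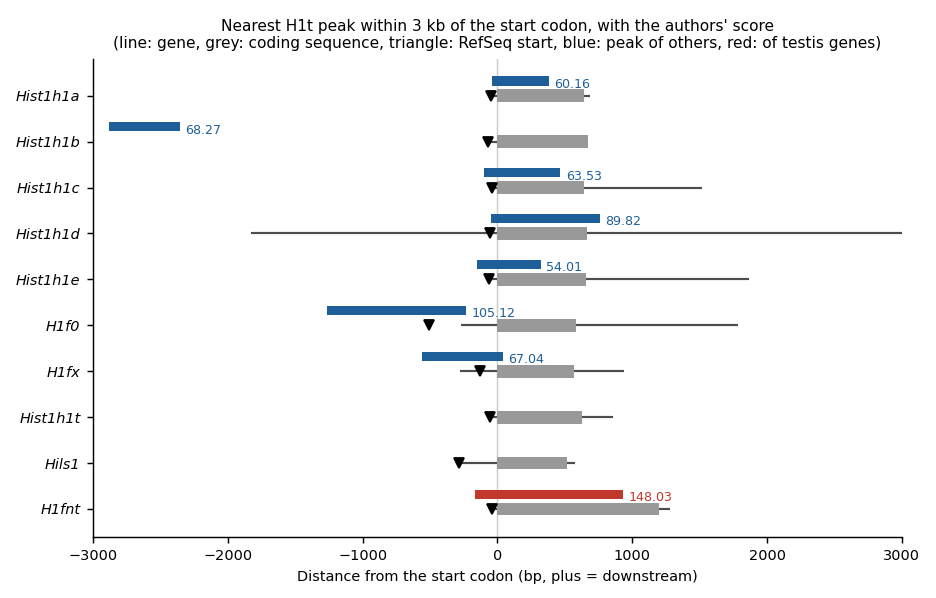
Nearest H1t peak within 3 kb of the start codon of each gene. The x axis is the distance from the start codon in bp, lines are genes (that of Hist1h1d runs beyond the axis), grey boxes are coding sequences, triangles are RefSeq starts, and coloured bars are peaks with the authors' score (blue for the others, red for testis genes). Hist1h1a, Hist1h1c, Hist1h1d, Hist1h1e and H1fnt carry their peak over the coding sequence, H1f0 and H1fx mostly before it, and Hist1h1t and Hils1 have none in this window. The bar in the row of Hist1h1b, with a score of 68.27, lies outside that gene and over Hist1h3i.

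At H1f0 and H1fx, which lie outside the cluster, the peaks lay mostly before the coding sequence. H1f0 (chromosome 15, 79028450 to 79030504, plus strand) had a peak of 1029 bp with a score of 105.12, which began 991 bp upstream of the start and ended 37 bp downstream. It covered 1.85% of the gene and none of the coding sequence, and it also overlapped Gm49544, an antisense transcript. The RefSeq start of H1f0 lies 238 bp before the GENCODE start, within this peak. H1fx (chromosome 6, 87980421 to 87981637, minus strand) had a peak of 597 bp with a score of 67.04, from 276 bp upstream to 320 bp downstream, which covered 7.05% of the coding sequence and also met the antisense gene Gm5577 and the microRNA gene Gm47286. The 250 bases before the RefSeq start lay wholly under the peak in both genes and had GC contents of 74.4% and 75.2%.

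H1fnt was the testis gene with a peak, and its score of 148.03 was the highest of the 7. The gene (chromosome 15, 98255986 to 98257293, minus strand) was covered from 139 bp upstream of its start to 959 bp downstream by 1 peak of 1099 bp, which took 73.4% of the gene and 77.9% of its coding sequence. That score was at or above 93.5% of the 4822 peaks at coding starts. A second peak, with a score of 64.59, lay 7605 bp beyond the gene's end.

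Hist1h1t (chromosome 13, 23695814 to 23696725, plus strand) had 0 peaks within 10 kb and 4 within 50 kb. The nearest ended 11023 bp upstream, just outside the 10 kb window, with a score of 100.28, and lay over Hist1h2bc, a histone H2B gene. The other 3 had scores of 56.02, 67.15 and 63.53 and lay at least 42.0 kb away, the last of them being the peak on Hist1h1c. The gene closest to Hist1h1t, the histone H4 gene Hist1h4c at 910 bp, and the iron-regulating gene Hfe at 5.31 kb had no peak either. Hils1 (chromosome 11, 94967593 to 94968456, plus strand), which overlaps the gene Sgca, was farther from any peak. Its nearest one lay 22.7 kb downstream in Ppp1r9b with a score of 53.12, and the 6 peaks within 50 kb scored from 51.3 to 116.23.

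Set side by side, 1 of the 3 testis genes and 6 of the other 7 had a peak in the gene (33.3% and 85.7%), beside 48.6% of coding genes. At the start it was 1 of 3 and 5 of 7, beside 23.0% of coding genes. Within 10 kb it was 1 of 3 and 7 of 7, where 68.4% of coding genes had a peak. Within 50 kb all 10 genes had at least 1 peak, as did 92.9% of coding genes, so this distance separates no gene from the rest. The order of the 2 groups turned when weak peaks were left out. With scores of at least 75, Hist1h1d, H1f0 and H1fnt kept a peak in the gene, which is 1 of 3 testis genes and 2 of 7 others, beside 28.1% of coding genes. The 2 groups also differed in base composition. Of 5 classes of coding genes by CpG density, described below, the highest held 0 of the 3 testis genes and 6 of the other 7.

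**Figure D2:**
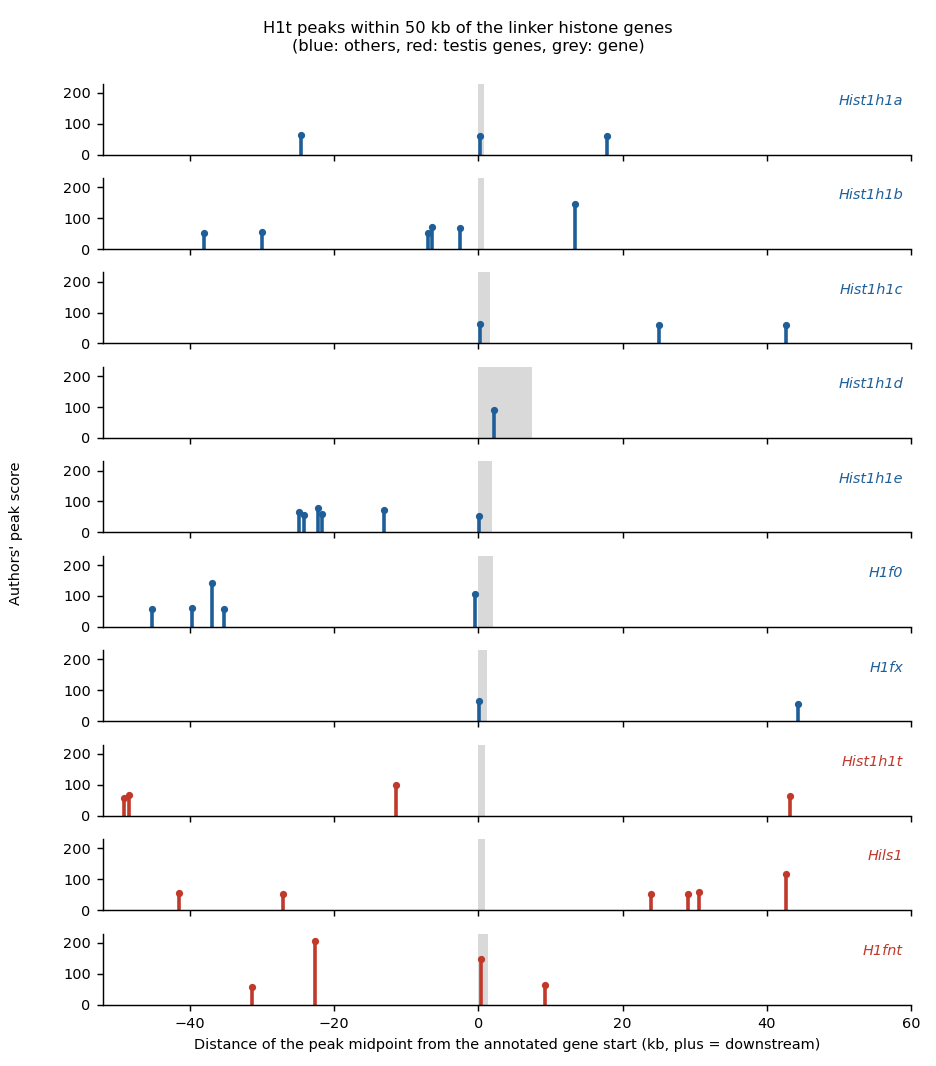
Peaks within 50 kb of each gene. The x axis is the distance of the peak midpoint from the annotated gene start in kb, stem height is the authors' score, grey marks the gene, and colour marks testis genes (red) and the others (blue). The 3 genes without a peak of their own, Hist1h1b, Hist1h1t and Hils1, have 6, 4 and 6 peaks in the wider window.

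In all, 34 different peaks lay within 50 kb of a linker histone gene, and 5 of them were within that distance of more than 1, since the cluster genes are neighbours. Of the 34, 7 were the peaks within the genes. The highest score of the 34, 204.31, was at a peak 21.9 kb upstream of H1fnt and 5007 bp from the zinc-finger gene Zfp641. The peak on H1fnt came next, followed by 147.1 at 12.2 kb beyond the end of Hist1h1b and 141.68 in Triobp, upstream of H1f0. A run of 5 peaks upstream of Hist1h1e, with scores from 56.02 to 79.71, overlapped no annotated gene. The distal part of cluster 1, 0.404 Mb from Hist1h1d and its neighbours to the end of the cluster, held 13 peaks, of which 4 were on linker histone genes and 2 on core histone genes. The proximal part, 0.122 Mb with Hist1h1b, held 7, of which 0 were on linker and 5 on core histone genes. The distal part has 26 core histone genes and 32.2 peaks per Mb, the proximal part 17 and 57.5. Chromosome 13 as a whole has 26.1 peaks per Mb. Core histone genes between these parts are left out of both counts.

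The linker histone genes with a peak ranged from 56.5% to 68.8% in the GC content of their coding sequence, and the 3 without one from 52.6% to 57.3%, so the ranges overlapped. Coding genes were divided into 5 classes of similar size by the GC content of the coding sequence. The top class (57.8% or more) held Hist1h1c at 63.5%, Hist1h1d at 62.5%, Hist1h1e at 61.5%, H1fx at 68.8% and H1fnt at 58.3%, and 5 of these 5 had a peak in the gene. The next class (53.8% to 57.8%) held Hist1h1a at 56.5% and H1f0 at 56.6%, which had one, and Hist1h1b at 57.3% and Hist1h1t at 56.5%, which had none. The peak of H1f0 covered none of its coding sequence. Hils1, at 52.6%, was in the middle class. Among single-exon coding genes in general, a peak in the gene was found in 54.2% of the highest class, 17.2% of the next and 15.1% of the middle class. Over all coding genes the same classes gave 69.8%, 55.4% and 45.8%. Hist1h1t and Hist1h1a had the same coding GC content of 56.5%, and of this pair Hist1h1a carried a peak. The part of base composition in these differences was not tested.

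**Figure D3:**
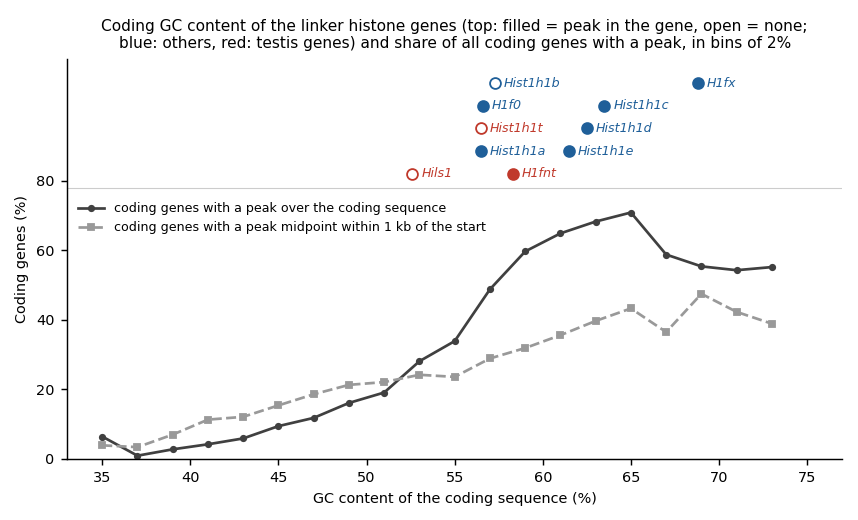
GC content and peaks. Lines give the share of all coding genes with a peak over the coding sequence or at the start, in bins of 2% coding GC content (x axis). Points above place the linker histone genes by their own GC content (red for testis genes). They are filled where a peak lies anywhere in the gene and open where none does, a different measure from the lines. The filled genes include H1f0, with no peak over the coding sequence, and Hist1h1d, with none at the GENCODE start. The open points, Hils1, Hist1h1t and Hist1h1b, lie between 52.6% and 57.3%, where Hist1h1a and H1f0 also lie.

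Coding genes were also divided into 5 classes by CpG per 100 coding bases. A peak in the gene was found in 21.9% of the lowest class and 65.5% of the highest. A peak over the coding sequence was found in 2.8% and 55.3%. The highest class (4.12 or more) held 6 of the 10 linker histone genes, Hist1h1a to Hist1h1e and H1fx. Of these, Hist1h1b alone had no peak. Between the linker histone genes with and without a peak, CpG density overlapped. The coding sequence of Hist1h1t held 3.65 CpG per 100 bases, against 4.61 in Hist1h1b, 4.83 in Hist1h1a, 6.61 in Hist1h1d, 7.36 in Hist1h1c and 7.42 in Hist1h1e. H1fx had the most, 11.5, and Hils1 the fewest, 2.53. H1fnt, the gene with the highest score, had 3.34, fewer than Hist1h1t. H1f0, which also had a peak in the gene, had 4.10, fewer than Hist1h1b. The H1f0 peak covered none of that coding sequence. It covered the 250 bases before the RefSeq start, which held 24 CpG. The part of CpG density in these differences was not tested. The coding sequence of Hist1h1t shared 67.6% to 69.6% of its aligned bases with those of Hist1h1a to Hist1h1e, which shared 75.04% to 87.3% with one another over 10 pairs.

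Reads from near-identical copies can be assigned to the wrong gene, and no label says how the authors treated reads with several matching positions. For each gene the stretches of 50 bases of its coding sequence were looked up in the transcripts of all other genes. In Hist1h1a, Hist1h1b, Hist1h1t, H1f0, H1fx, H1fnt and Hils1, 0% of them occurred elsewhere; these 7 are 4 genes with a peak and the 3 without one. The genome outside transcripts was not searched. In Hist1h1c, Hist1h1d and Hist1h1e the shares were 21.9%, 26.4% and 25.4%, all among these 3 genes (the Hist1h1c and Hist1h1e stretches printed earlier have such an identical run in common), so their peaks are less certain as separate sites.

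The upstream sequences are shown to compare promoters of genes with and without a peak. They are the 250 bases before the RefSeq start (RefSeq, GRCm38.p6, all 10 genes matched), for Hist1h1t, Hist1h1e, H1fnt and Hils1. Capitals mark 3 motifs, on either strand: AAACACA, known as the H1 box, CCAAT, and TATAAA, none of which contains another. The Hist1h1t sequence is chr13:23695561-23695810 on the plus strand, with no peak. The Hist1h1e sequence is chr13:23622559-23622808 on the minus strand, with 94 bases under its peak. The H1fnt sequence is chr15:98257308-98257557 on the minus strand, with 125 bases under its peak. The Hils1 sequence is chr11:94967343-94967592 on the plus strand, with no peak.
Hist1h1t: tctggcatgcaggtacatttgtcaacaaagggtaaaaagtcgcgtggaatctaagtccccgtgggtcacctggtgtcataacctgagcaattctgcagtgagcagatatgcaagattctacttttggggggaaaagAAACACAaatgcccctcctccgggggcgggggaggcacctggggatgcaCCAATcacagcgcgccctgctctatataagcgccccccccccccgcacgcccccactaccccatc
Hist1h1e: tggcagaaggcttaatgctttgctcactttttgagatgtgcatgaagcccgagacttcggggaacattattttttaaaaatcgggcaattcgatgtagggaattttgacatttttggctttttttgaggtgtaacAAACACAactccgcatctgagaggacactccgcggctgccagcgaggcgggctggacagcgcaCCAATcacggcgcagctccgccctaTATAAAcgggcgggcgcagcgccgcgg
H1fnt: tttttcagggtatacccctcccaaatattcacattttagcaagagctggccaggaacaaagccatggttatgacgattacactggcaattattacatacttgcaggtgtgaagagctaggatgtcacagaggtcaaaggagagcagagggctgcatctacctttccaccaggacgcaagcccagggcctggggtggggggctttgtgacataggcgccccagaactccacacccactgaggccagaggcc
Hils1: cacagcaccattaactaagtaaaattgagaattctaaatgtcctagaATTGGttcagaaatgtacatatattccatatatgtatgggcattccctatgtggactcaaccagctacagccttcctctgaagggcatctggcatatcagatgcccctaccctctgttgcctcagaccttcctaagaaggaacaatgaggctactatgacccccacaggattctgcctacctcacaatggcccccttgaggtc

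Motifs were counted in the full table sequences, which run 250 bases before to 50 after the start. The H1 box was found in Hist1h1b, Hist1h1c, Hist1h1d, Hist1h1e and Hist1h1t, against 7.18% of 32851 promoters. CCAAT was found in these 5, Hist1h1a and Hils1, against 37.4%. TATAAA was found in Hist1h1a, Hist1h1b, Hist1h1d and Hist1h1e, against 13.6%. Exact letters alone were counted and marked, so near variants, such as tatataag in the Hist1h1t sequence shown, were left out. The GC box, GGGCGG, which is not marked in the sequences shown, was found in Hist1h1a, Hist1h1b, Hist1h1e, Hist1h1t, H1f0 and H1fx, against 35.7%, and of the 4 motifs it was the one present in H1f0 and H1fx. Hist1h1b and Hist1h1t, the cluster genes without a peak, thus had the H1 box and CCAAT, as did Hist1h1c, Hist1h1d and Hist1h1e. Hist1h1a had a peak and no H1 box in this window. The sequence of Hils1 held 0 CpG, that of H1fnt 6, that of Hist1h1t 10 and that of H1fx 40.

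The core histone genes around them, whose products form the nucleosome itself, had a median coding GC content of 65.4%, against 57.8% in the linker histone genes. Of 48 core histone genes of cluster 1, all in the highest GC class, 8 had a peak in the gene (16.7%) and 13 at the start (27.1%). Over all coding genes these shares were 48.6% and 23.0%, and over single-exon coding genes of the same GC class 54.2% and 48.8%. The 13 core histone genes with a start peak drew on 8 peaks. Of these, 7 lay within 1 kb of the starts of both an H2A and an H2B gene and were counted for both. By type, 3 of 13 H2A genes, 4 of 15 H2B, 1 of 9 H3 and 0 of 11 H4 genes had a peak in the gene. The highest start scores were 100.28 for Hist1h2ac and Hist1h2bc and 70.02 for Hist1h2an and Hist1h2bp. Hist1h2aa and Hist1h2ba, which encode testis variants of H2A and H2B and were picked out after their values were seen, shared a peak of score 52.95. Core histone genes share most of their sequence: a median of 80.2% of the 50-base stretches of a gene occurred in transcripts of other genes, 86.7% in the 8 with a peak and 78.1% in the 40 without. The part of shared sequence in these counts was not tested.

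**Figure D4:**
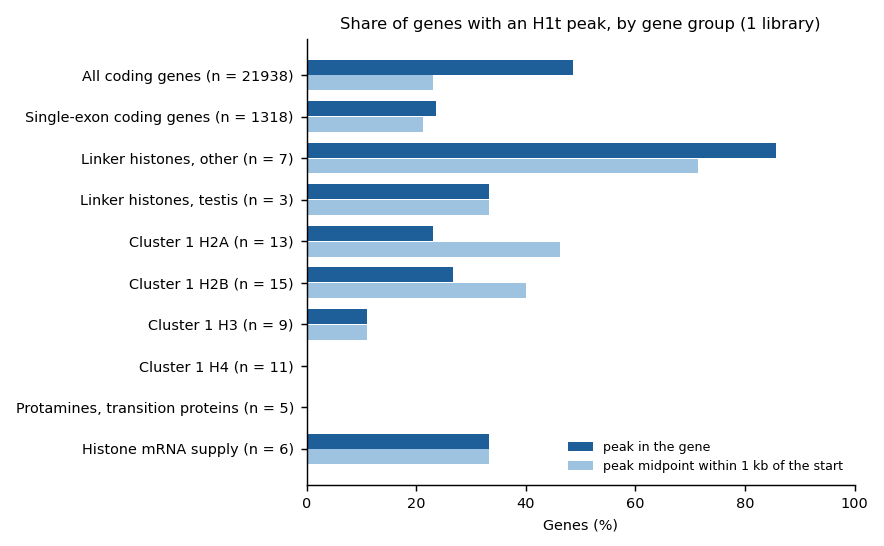
Share of genes (x axis, %) with a peak in the gene (dark bars) and with a peak midpoint within 1 kb of the start (light bars), by group, from 1 library and without error bars. The other linker histone genes reach 85.7% and the testis ones 33.3%, while H4 genes and the protamine and transition protein genes are at 0%.

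Other genes of histone supply and sperm chromatin were read in the same way. Over all coding genes, 48.6% had a peak in the gene and 23.0% at the start. The protamine genes Prm1, Prm2 and Prm3 and the transition protein genes Tnp1 and Tnp2, whose products replace histones in spermatids, had 0 of 5 in the gene and 0 of 5 at the start. Within 10 kb, 4 of these 5 genes had a peak, against 68.4% of coding genes. These 4, Prm1, Prm2, Prm3 and Tnp2, are neighbours on chromosome 16. The nearest peak was 1.6 kb from Tnp2 and 51.3 kb from Tnp1. H1foo, the oocyte linker histone gene, had none in the gene, and its nearest peak was 6.93 kb away. Of 6 genes for the supply of histone mRNA, Npat (score 53.61) and Slbp (100.18), which encode an activator of histone transcription and the histone stem-loop binding protein, had a peak at the start and in the gene. The chaperone genes Nasp and Set had 0 of 2 in the gene and 0 of 2 at the start.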

How the data were processed

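The submitters' processing notes name Bowtie 1.1.2 and the build mm10. For the peak caller, its threshold and any use of the input, the sources used here give nothing; peak names have the form that MACS writes. The input was not analysed here. The deposited score of each peak is the authors' own value and served to describe and filter peaks within this list. Starts were shifted to positions counted from 1, and peaks were compared with GENCODE M21 (GRCm38, the same assembly as mm10).

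A gene counted as having a peak with an overlap of at least 1 bp; a start peak had its midpoint within 1 kb of the gene's 5′ end; the wider windows added 10 or 50 kb on each side. The same rules were applied to all coding genes. Coding GC content, CpG and 50-base stretches came from GENCODE transcript sequences (the longest coding sequence per gene). Coding sequences were aligned globally (match 2, mismatch -1, gap -5 and -0.5), and identity is over aligned bases. The windows of genome sequence planned for GC content around starts were not computed. All 10 genes are named, with the nearest gene of peaks near them; of the core histone genes, those with the highest start scores; of smaller lists, every gene with a start peak, and H1foo.

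Members and lists were chosen with earlier results of these data known. Python 3.11.15, numpy 2.4.6, pandas 2.3.3, Biopython 1.88, matplotlib 3.10.9 and bedtools 2.31.1 were used. Interval counting was tested on simulated data and against bedtools.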

Additional observations from a re-analysis of the deposited data

How the results depend on the processing

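The overlap rule, the start window, the choice of start site and the flank moved each count of linker histone genes by at most 1 (6 or 7 in the gene, 6 or 7 at the start, 8 or 9 near 10 kb, 10 near 50 kb), with the testis genes below or level with the others. The counts depended on the score. With scores of at least 75, 3 of the 10 genes had a peak in the gene and 2 at the start. The shares of coding genes were 28.1% and 10.2%. Within 10 kb it was 3 of 10 against 42.4%, and within 50 kb 7 of 10 against 73.0%. With at least 100 there were 2 in the gene, 2 at the start, 2 within 10 kb and 5 within 50 kb. Shares of coding genes were then 17.9%, 5.21%, 27.0% and 53.8%. The share of testis genes minus that of the others, in percentage points, was -52.4 in the gene, -38.1 at the start, -66.7 within 10 kb and 0 within 50 kb. It turned to 4.76, 19.05, 4.76 and 42.9 with scores of at least 75, and to 19.05, 19.05, 19.05 and 71.4 with at least 100, as fewer peaks were left; shares of coding genes fell too, to 17.9% in the gene and 5.21% at the start. RefSeq starts and overlap with coding sequence were added after the data were seen. No replicate could be left out, and the depth behind weak peaks is unknown.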
